A study of Mus musculus with 13 samples.

Results

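The genes of 6 secreted and adhesion factors, Nov, Ndnf, Smoc2, Cxcl12, Olfml3 and Icam1, were followed through cultured mouse oligodendrocyte-lineage cells with and without Eed. They are 6 of the 13549 genes of the count table. They were picked by name because their counts were higher in Eed conditional knockout (cKO) cells at one culture stage or both, so the knockout comparisons of these 6 are given as descriptions with no test. Of the products 5 are secreted, and Icam1 encodes a protein of the cell membrane.

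RNA was sequenced from oligodendrocyte precursor cells (OPCs) and from immature oligodendrocytes (iOLs), the cells that OPCs form in differentiation medium. All cells came from brains of C57BL/6 mice at postnatal day 6 or 7. OPCs were grown in DMEM-Sato medium with PDGF and NT-3, and iOLs were taken at day 2 after T3 (thyroid hormone) had been added and PDGF left out. The 4 groups were control OPCs (2 libraries), Eed cKO OPCs (3 libraries), control iOLs (2 libraries) and Eed cKO iOLs (2 libraries). Brains were of day 7 for control OPC library 1 and for Eed cKO OPC libraries 1 and 2, and of day 6 for the other 6 libraries. Group membership was read from the sample titles, because the genotype label is EED cKO for every sample. The labels do not give the Cre driver, the deleted exons or the genotype of the controls. Whether libraries of a group are separate animals or cultures is not stated either, so p-values measure the spread between these libraries, which may be technical.

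EED is one of the essential parts of Polycomb repressive complex 2 (PRC2), which methylates the tail of histone H3 and keeps many developmental genes silent. OPCs divide in response to PDGF and, once it is withdrawn and thyroid hormone is given, stop dividing and begin to make myelin proteins. Secreted factors of the kinds studied here carry signals between such cells and their surroundings, through integrins, chemokine receptors, growth factor receptors and the extracellular matrix.

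Total counts ran from 17417529 to 19680398 per library. Eed was at 16.8 to 21.7 CPM (counts relative to the library total scaled by TMM factors) in control OPCs and at 11.8 to 13.3 CPM in Eed cKO OPCs. In iOLs it was at 18 to 21.2 CPM in controls and at 12.1 to 14.6 CPM in Eed cKO libraries, so the groups did not overlap at either stage. Its log2 fold change, Eed cKO over control, was −0.62 ± 0.17 in OPCs and −0.55 ± 0.18 in iOLs, which did not pass after adjustment (edgeR adjusted p = 0.0847 and 0.0973). The PRC2 partner genes Suz12, Ezh1 and Ezh2 lay between −0.12 and 0.22. These counts cover the whole gene, and the level of the deleted part alone was not measured. The OPC markers and the oligodendrocyte markers were in the table for 11 of 11 and 11 of 12 genes. Pdgfra, the PDGF receptor that defines OPCs, ran from 3300 to 4430 CPM over the OPC libraries and from 497 to 821 CPM over the iOL libraries. The 12 astrocyte markers found in the table summed to between 4620 and 12600 CPM over all libraries, so RNA of genes used to mark astrocytes was abundant in every group.

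The promoters of Cxcl12, Olfml3 and Icam1 are printed here because, of the 6 genes, only these had a promoter entry. The sequences are those of RefSeq for GRCm38.p6, the assembly also called mm10, with 250 bases before the gene start and 50 bases from it on, so the gene starts at base 251. Entries of that promoter table matched 3 of the 6 genes. The windows lie at chr6:117168285-117168584 on the plus strand for Cxcl12, at chr3:103737952-103738251 on the minus strand for Olfml3 and at chr9:21015690-21015989 on the plus strand for Icam1. Capitals mark matches of searched motifs, on either strand.
Cxcl12: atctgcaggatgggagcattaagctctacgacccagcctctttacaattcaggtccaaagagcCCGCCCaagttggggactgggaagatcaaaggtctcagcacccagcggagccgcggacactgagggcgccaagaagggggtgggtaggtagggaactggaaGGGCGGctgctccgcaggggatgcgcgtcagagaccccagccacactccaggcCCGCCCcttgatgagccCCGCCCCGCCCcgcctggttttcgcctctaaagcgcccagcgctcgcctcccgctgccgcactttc
Olfml3: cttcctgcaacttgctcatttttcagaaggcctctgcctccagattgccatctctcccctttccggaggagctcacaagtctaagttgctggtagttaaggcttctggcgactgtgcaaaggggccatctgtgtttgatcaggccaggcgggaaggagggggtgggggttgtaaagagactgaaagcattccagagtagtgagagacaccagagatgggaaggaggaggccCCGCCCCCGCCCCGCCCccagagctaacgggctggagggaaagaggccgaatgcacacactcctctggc
Icam1: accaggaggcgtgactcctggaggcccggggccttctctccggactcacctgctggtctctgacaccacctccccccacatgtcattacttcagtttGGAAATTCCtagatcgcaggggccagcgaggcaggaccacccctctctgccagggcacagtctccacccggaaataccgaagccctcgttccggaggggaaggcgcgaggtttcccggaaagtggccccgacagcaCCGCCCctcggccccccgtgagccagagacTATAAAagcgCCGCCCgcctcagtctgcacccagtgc
The motifs searched were GGGCGG (the GC box), TATAAA (the TATA box), CCAAT (the CCAAT box) and GGAAATTCC, 1 form of the NF-kappa-B motif. GGGCGG matched 5 times in the Cxcl12 window, 3 times in that of Olfml3 and 2 times in that of Icam1, and neighbouring matches can share bases. Of 13929 mouse promoters of this length 62.5% hold it. The Icam1 window alone of these 3 also holds TATAAA, from base 264, which 6.92% of promoters hold, and GGAAATTCC, from base 98, which 0.294% hold. This TATAAA lies after the gene start at base 251 and not before it. CCAAT, held by 37.6% of promoters, has no match in these 3 windows. The GC content was 64.7% for Cxcl12, 58.0% for Olfml3 and 64.7% for Icam1, against a median of 61.0% over all promoters. CpG dinucleotides numbered 20, 8 and 19, against a median of 20. A match is a string of letters and no evidence of binding.

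The 6 genes differed in the stage at which they were higher without Eed. Smoc2 had its highest level in Eed cKO OPCs. Cxcl12 and Icam1 were higher at both stages and highest in Eed cKO iOLs. Ndnf and Olfml3 were higher in Eed cKO iOLs while their OPC groups overlapped. Nov had its highest level in Eed cKO iOLs, with OPC groups that also overlapped.

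Smoc2 (chromosome 17, 14279490 to 14404790) encodes a secreted calcium-binding glycoprotein of the SPARC family that sits in the extracellular matrix. Smoc2 stood at 1.23 and 0.895 CPM in control OPCs and 50.6, 55.7 and 49.4 CPM in Eed cKO OPCs. In iOLs it was 0.170 and 0.611 CPM in controls and 4.95 and 7.51 CPM in Eed cKO cells. The Eed cKO libraries were thus above the controls at each stage, and the OPC libraries were above the iOL libraries of the same genotype. Smoc2 was the only 1 of the 6 genes whose neighbouring groups did not overlap anywhere in the order control iOL, control OPC, Eed cKO iOL, Eed cKO OPC. Eed cKO over control gave a log2 fold change of 5.61 ± 0.33 (SE) in OPCs and of 3.96 ± 0.40 in iOLs, and their difference was −1.64 ± 0.61. In counts, 2924 reads in Eed cKO OPCs stood against 38 in control OPCs, a ratio per scaled total of 49.2 with an exact 95% interval of 35.8 to 69.7. In iOLs 235 reads stood against 14, a ratio of 15.9 (9.26 to 29.5). These intervals pool the libraries of a group and cover counting error alone. Leaving out control iOL library 2, which held 11 of those 14 reads, moved the iOL value to 5.14 and the difference between stages to −0.47. The annotation places 2 long noncoding RNA genes, Gm52280 and 4930474M22Rik, over part of Smoc2. No source used here says whether the counting used strand, so reads of Smoc2 and of these genes cannot be told apart.

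Cxcl12 (chromosome 6, 117168535 to 117181368) encodes a chemokine that attracts cells carrying the receptor CXCR4 and is removed by the scavenger receptor ACKR3. It was at 1.35 and 1.58 CPM in control OPCs and at 4.56, 3.99 and 3.92 CPM in Eed cKO OPCs. Control iOLs held 1.19 and 1.39 CPM and Eed cKO iOLs 9.37 and 14.8 CPM. The 4 control libraries therefore lay close together, and the Eed cKO OPCs lay between them and the Eed cKO iOLs without overlap. Its log2 fold change was 1.5 ± 0.28 in OPCs and 3.22 ± 0.30 in iOLs, with a difference of 1.72 ± 0.40. The ratio of counts was 2.82 (exact 95% interval 2.09 to 3.88) in OPCs and 9.36 (6.90 to 13) in iOLs.

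Icam1 (chromosome 9, 21015940 to 21028814) encodes an adhesion molecule of the immunoglobulin family that leukocytes bind through their beta-2 integrins. Icam1 was measured at 1.70 and 2.63 CPM in control OPCs and 7.59, 8.78 and 8.57 CPM in Eed cKO OPCs. In control iOLs it was 2.27 and 3.94 CPM, and in Eed cKO iOLs 13.2 and 22.0 CPM. Both control groups overlapped each other, and every Eed cKO library was above every control library. For Icam1 the log2 fold change was 1.93 ± 0.33 in OPCs and 2.50 ± 0.34 in iOLs, so the difference of 0.57 ± 0.47 was little more than its standard error. The ratio of counts was 3.80 (exact 95% interval 2.99 to 4.88) in OPCs and 5.66 (4.62 to 6.98) in iOLs.

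Ndnf (chromosome 6, 65671611 to 65712323) encodes a secreted glycoprotein with fibronectin type III domains, known as a neurotrophic factor, an inhibitor of FGF signalling and a marker of interneurons of cortical layer 1. Control OPCs held 2.64 and 5.0 CPM of it and Eed cKO OPCs 3.36, 2.85 and 5.52 CPM. Control iOLs held 3.18 and 2.44 CPM, and Eed cKO iOLs 40.3 and 52.8 CPM. The Eed cKO iOLs stood alone, and the other 3 groups overlapped. Within the OPCs the levels were 2.64 to 3.36 CPM in the day 7 libraries and 5.0 and 5.52 CPM in the day 6 libraries, with both genotypes on each day. The control iOLs were also of day 6. Whether day or another trait of the libraries set these OPC levels apart was not tested. Eed cKO over control, Ndnf had a log2 fold change of 0.03 ± 0.34 in OPCs and 4.05 ± 0.38 in iOLs, with a difference of 4.02 ± 0.50. In iOLs the ratio of counts was 16.6 (exact 95% interval 13.6 to 20.5).

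Olfml3 (chromosome 3, 103735394 to 103738001) encodes a secreted glycoprotein with an olfactomedin domain, which microglia make in the adult brain. It had the least spread of the 6 genes in OPCs, with 6.03 and 5.32 CPM in controls and 5.53, 5.49 and 5.73 CPM in Eed cKO cells. It was at 2.56 and 2.83 CPM in control iOLs and at 15.8 and 17.5 CPM in Eed cKO iOLs. Control iOLs were thus below all OPC libraries and Eed cKO iOLs above all of them. For Olfml3 the log2 fold change was −0.02 ± 0.17 in OPCs and 2.62 ± 0.19 in iOLs, with a difference of 2.65 ± 0.25. In iOLs the ratio of counts was 6.18 (exact 95% interval 4.98 to 7.74).

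Nov (chromosome 15, 54745910 to 54753762, named Ccn3 in the annotation) encodes a matricellular protein of the CCN family that binds integrins and Notch receptors. Regulatory T cells of the mouse secrete it, and it promotes oligodendrocyte differentiation there. Control OPCs had 1.52 and 0.211 CPM of Nov, which were 26 and 4 reads, and Eed cKO OPCs 1.63, 2.58 and 1.45 CPM. Control iOLs held 0.170 and 0.333 CPM, and Eed cKO iOLs 11.8 and 24.6 CPM. Control OPC library 1 lay within the range of the Eed cKO OPCs, and control OPC library 2 lay among the control iOLs. The log2 fold change was 1.15 ± 0.66 in OPCs, but it ran from 0.31 without control OPC library 2 to 3.12 without control OPC library 1. In iOLs it was 6.13 ± 0.78, the highest of the 6 genes at that stage, from 687 reads against 9, a ratio of 72.1 with an exact 95% interval of 37.8 to 158. Nov reached 10 reads in only 1 of the 4 control libraries and in 5 of the 5 Eed cKO libraries. The table holds no gene with 10 reads or more in fewer than 4 libraries, so Nov is listed only through its Eed cKO libraries.

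**Figure D1:**
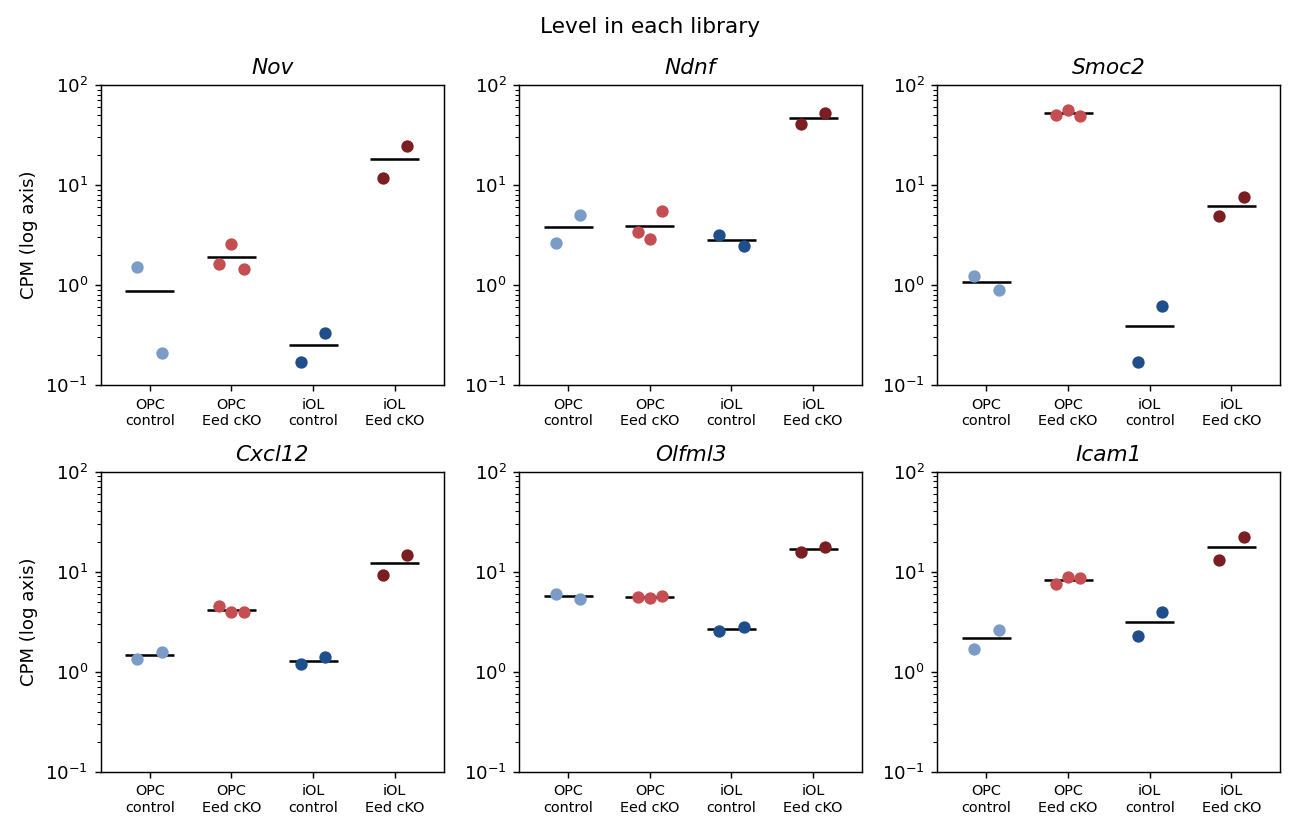
Level of each of the 6 genes in each library, in CPM scaled by TMM factors on a log axis, with 1 point per library and a bar at the mean of each group. Smoc2 is highest in Eed cKO OPCs at 49.4 to 55.7 CPM, and the other 5 genes are highest in Eed cKO iOLs.

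Counted with the edgeR threshold used for all genes (adjusted p under 0.05), 3 of the 6 were higher in Eed cKO OPCs (Smoc2, Cxcl12 and Icam1), where 2.94% of all genes were called higher, 0.303% lower and 3.25% in either direction. All 6 were higher in Eed cKO iOLs, where 7.08% of all genes were, with 3.51% lower and 10.6% in either direction. The same 3 genes had OPC groups that did not overlap and all 6 had iOL groups that did not, against 16.9% and 33.6% of all genes in that direction and 17.4% and 34.3% in the other. The choice of the 6 genes used these contrasts, so nothing is read from the counts. The median log2 fold change of the 6 was 1.32 in OPCs and 3.59 in iOLs, beside medians over all genes of −0.023 and −0.004. Of the difference between stages 2 were called, Ndnf and Olfml3, both larger in iOLs, where 0.945% of all genes were, with 0.886% smaller in iOLs and 1.83% in either direction. The rule used the stage at which each gene rose, so these too are description. Ndnf did not pass without any 1 of the 4 iOL libraries, nor Olfml3 without either control iOL library. In OPCs Cxcl12 did not pass in the fit of the OPC libraries only, nor, like Icam1, without control OPC library 1, Eed cKO OPC library 1 or Eed cKO OPC library 2.

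Since the OPC libraries came from brains of both days, the OPC difference was also taken within each day, from 2 Eed cKO libraries and 1 control on day 7 and 1 of each on day 6. The log2 differences were 5.31 and 5.62 for Smoc2, 1.59 and 1.26 for Cxcl12 and 2.19 and 1.66 for Icam1, on day 7 and day 6. They were 0.22 and 0.14 for Ndnf and −0.13 and 0.11 for Olfml3. For Nov they were 0.41 on day 7 and 2.28 on day 6. The first 3 genes were therefore higher on each day. The value of Nov differed between the days, and with 1 control library per day, day and library cannot be told apart.

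**Figure D2:**
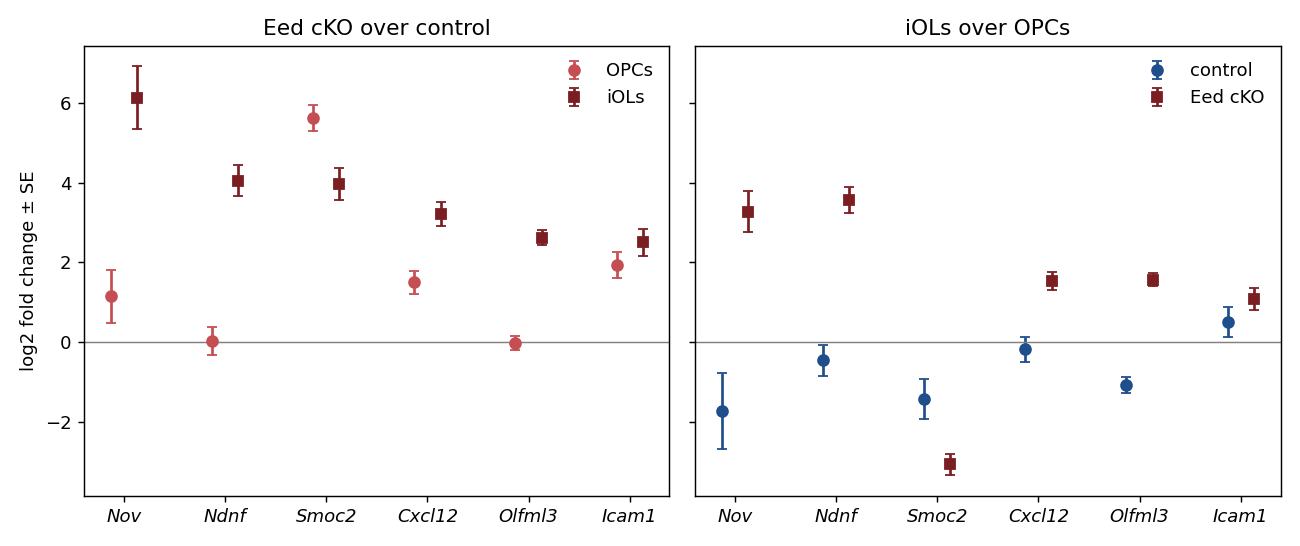
Log2 fold changes with standard errors for the 6 genes, on the left for Eed cKO over control in OPCs and iOLs and on the right for iOLs over OPCs in control and Eed cKO cells. On the left Ndnf and Olfml3 sit at 0.03 and −0.02 in OPCs and at 4.05 and 2.62 in iOLs, and on the right Smoc2 is the only gene lower in Eed cKO iOLs than in Eed cKO OPCs.

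Differentiation of control cells was not itself a comparison that chose the genes, but its control libraries also enter the knockout comparisons that did. A low level in control iOLs favours such a choice, so the tests below are not free of it. Olfml3 fell from 5.68 ± 0.507 CPM (SD, n = 2) in control OPCs to 2.69 ± 0.195 CPM (SD, n = 2) in control iOLs. This was a log2 fold change of −1.07 ± 0.20 (edgeR adjusted p = 0.00193), called too in 16 of 16 alternative settings (adjusted p from 0.000514 to 0.0357). Smoc2 fell by 1.41 ± 0.50 on the log2 scale (edgeR adjusted p = 0.042). That call ended in 8 of 16 alternatives, among them the removal of control OPC library 1, of control iOL library 1 and of each Eed cKO OPC library, with adjusted p from 0.0143 to 0.231 over all of them.

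The other 4 genes did not pass in control differentiation. The log2 fold change was −1.72 ± 0.95 for Nov (edgeR adjusted p = 0.167), −0.45 ± 0.39 for Ndnf (0.373), −0.18 ± 0.32 for Cxcl12 (0.673) and 0.51 ± 0.37 for Icam1 (0.281). Single libraries decided the sign of the first 2. Nov was at 0.25 without control OPC library 1 and at −2.56 without control OPC library 2, where it passed (edgeR adjusted p = 0.0248, in a range over the alternatives of 0.0248 to 0.875). Ndnf was at 0.09 without control OPC library 2, and it passed as lower with postnatal day as a term (edgeR adjusted p = 0.0194, in a range of 0.0194 to 0.875). Of all genes 21.0% rose and 25.3% fell in this comparison, 46.3% in all, so 2 of 6 lower is near that background. Both genes that fell had groups that did not overlap, as had 37.6% of all genes in that direction and 34.3% in the other.

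In Eed cKO cells the same step is a description, because the Eed cKO levels at each stage chose the genes. The log2 fold change of iOLs over OPCs was 3.57 ± 0.32 for Ndnf, 3.27 ± 0.52 for Nov, 1.57 ± 0.16 for Olfml3, 1.54 ± 0.23 for Cxcl12 and 1.08 ± 0.28 for Icam1. For Smoc2 it was −3.06 ± 0.27. Thus 5 genes were higher and 1 was lower after 2 days of differentiation, where 18.5% and 21.8% of all genes were called higher and lower, 40.3% in all. None of the 6 genes had overlapping groups in this step, as 34.3% of all genes were higher and 34.7% lower without overlap. Smoc2 was lower in iOLs in both genotypes, and Olfml3 was lower in control iOLs and higher in Eed cKO iOLs.

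Over the 9 libraries the 6 genes fell into unlike patterns, measured by Pearson's r of log2 CPM with a prior count of 2. The points share 4 groups, so these r values describe the libraries and carry no test. Cxcl12 and Icam1 were the most alike (r = 0.960), followed by Nov with Cxcl12 and with Olfml3 (0.927 each) and Ndnf with Olfml3 (0.897). Smoc2 was the least like the others, with r between 0.133 (Ndnf) and 0.667 (Icam1).

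Among all genes with a mean of at least 1 CPM, patterns very similar to that of Smoc2 were those of the zinc transporter gene Slc30a3 (r = 0.991) and the nuclear receptor gene Nr6a1 (0.985). Closest to Ndnf were the ephrin receptor gene Ephb2 (0.994), Sulf1 (0.979), which encodes a sulfatase that trims heparan sulfate, and the kinase gene Map3k14 (0.978). Numb (0.970), which encodes an inhibitor of Notch, Rgs6 (0.968), a regulator of G protein signalling, and the neuregulin receptor gene Erbb3 (0.966) came closest to Cxcl12. Icam1 had Plagl1 (0.977), an imprinted zinc finger gene, Rgs6 again (0.970) and the metalloprotease inhibitor gene Timp2 (0.968). For Olfml3 they were the placental growth factor gene Pgf (0.949), the neuropeptide gene Adcyap1 and Smad1, which carries BMP signals (0.943 each). For Nov they were the complement inhibitor gene Cd59a (0.956), the ceruloplasmin gene Cp and the ligand gene Wnt4 (0.948 each).

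The genes around the 6 on the chromosome were looked up as well, and those named here were chosen after their values were seen. Beside Smoc2, both nearest genes of the table were higher in Eed cKO OPCs. Thbs2, which encodes a matrix thrombospondin and lies 260710 bases away, rose by 1.51 ± 0.31 on the log2 scale in OPCs (edgeR adjusted p = 0.0307) and by 1.66 ± 0.32 in iOLs (0.0122). Afdn, which encodes a junction scaffold protein and lies 373692 bases away on the other side, rose by 0.90 ± 0.17 in OPCs (edgeR adjusted p = 0.0241) and was at 0.62 ± 0.18 in iOLs (0.0616). Next to Olfml3, the synaptotagmin gene Syt6 rose by 2.10 ± 0.23 in iOLs (edgeR adjusted p = 0.00104), from 0.25 ± 0.18 in OPCs (0.389). Next to Nov, Enpp2, which encodes the secreted enzyme autotaxin, fell by 0.85 ± 0.16 in iOLs (edgeR adjusted p = 0.012), opposite to Nov. Smarcad1 beside Ndnf, Rassf4 and Zfp637 beside Cxcl12, and Mrpl4 and Tyk2 beside Icam1 had edgeR adjusted p from 0.131 to 0.939 over both stages. Leaving out single libraries ended the calls of Thbs2, Afdn and Enpp2, with adjusted p up to 0.111, 0.095 and 0.124 over the alternatives. For Thbs2 in OPCs these were 7 of the 9 libraries, all but control OPC library 2 and Eed cKO OPC library 3. For Afdn they were control OPC library 1 and Eed cKO OPC libraries 1 and 2. Both control iOL libraries and Eed cKO iOL library 1 ended those of Thbs2 in iOLs and of Enpp2, and Syt6 in iOLs kept its call throughout (up to 0.0163).

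The partners through which these factors act, and the families they belong to, were tested gene by gene. Among all genes 2.94% were called higher and 0.303% lower in OPCs, and 7.08% and 3.51% in iOLs, with medians of −0.023 and −0.004 on the log2 scale. The lists are short, so most counts of 0 or 1 below lie near these shares. Cxcr4 and Ackr3, the receptors of CXCL12, were in the table and passed at neither stage. Cxcr4 was at −0.02 ± 0.24 in OPCs and 0.32 ± 0.26 in iOLs (edgeR adjusted p = 0.966 and 0.554), and Ackr3 at −0.40 ± 0.15 and 0.25 ± 0.16 (0.147 and 0.432). Of 10 NOV partners in the table none passed in OPCs, with 2 higher at p under 0.05 unadjusted and 1 called higher by DESeq2. In iOLs 1 of 10 rose, beside 7.08% of all genes. It was Fbln1, which encodes the matrix protein fibulin-1 (log2 1.75 ± 0.26, edgeR adjusted p = 0.00402). Fbln1 was at 4.03 and 3.05 CPM in control iOLs and at 13.2 and 10.5 CPM in Eed cKO iOLs. Notch1, Itgav, Itgb3, Itgb5 and Gja1, a connexin gene, lay between −0.70 and 0.80 on the log2 scale and passed at neither stage. Itgb3 in OPCs came nearest, at 0.80 ± 0.21 (edgeR adjusted p = 0.0809), and passed with DESeq2 and with postnatal day as a term.

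Integrin genes Itgal, Itgam and Itgb2, whose products bind ICAM1 on leukocytes, and the related genes Icam2 and Icam5 are not among the genes of the table. Of 8 further leukocyte adhesion genes none passed in OPCs (1 higher with p under 0.05 unadjusted, 0 called by DESeq2). In iOLs 1 of 8 fell, Alcam (log2 −0.84 ± 0.14, edgeR adjusted p = 0.00626), which encodes an adhesion molecule of the immunoglobulin family. It was at 182 and 163 CPM in control iOLs and at 94.5 and 97.7 CPM in Eed cKO iOLs. Vcam1, another adhesion molecule gene that NF-kappa-B induces, was at −0.15 ± 0.38 in OPCs and 0.15 ± 0.42 in iOLs (edgeR adjusted p = 0.816 and 0.894). Of 14 NF-kappa-B response genes other than Icam1 none passed at either stage. With p under 0.05 unadjusted, 2 were higher in OPCs, and 2 higher and 1 lower in iOLs, and DESeq2 called 1 higher at each stage.

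Of the other chemokines and their receptors, 11 were in the table. None passed in OPCs (1 lower with p under 0.05 unadjusted, 0 called by DESeq2). In iOLs 1 rose, Cxcl14, which encodes a chemokine and went from 4.54 and 9.05 CPM in controls to 23.2 and 25.8 CPM in Eed cKO cells. The log2 fold change of Cxcl14 was 1.85 ± 0.26 (edgeR adjusted p = 0.00277), against 0.05 ± 0.21 in OPCs (0.902). In control differentiation Cxcl14 fell by 3.94 ± 0.27 on the log2 scale (edgeR adjusted p = 8.61e-06).

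The families of the 6 genes were tested member by member, adjusted over all genes. Of 3 further CCN genes, Wisp1 rose in OPCs (log2 3.50 ± 0.63, edgeR adjusted p = 0.0183), from 0.234 and 0.0526 CPM to 1.57, 1.78 and 1.6 CPM. In iOLs no CCN gene passed, with 2 higher at p under 0.05 unadjusted and 0 called by DESeq2. Cyr61 and Ctgf, the paralogues of Nov that are best known as targets of YAP, were at −0.18 ± 0.36 and 0.24 ± 0.41 in OPCs and at 0.18 ± 0.39 and 0.99 ± 0.43 in iOLs. Smoc1, the paralogue of Smoc2, was at 0.16 ± 0.11 in OPCs and rose by 0.79 ± 0.12 in iOLs (edgeR adjusted p = 0.00411). Its level was 57.9 and 57.8 CPM in control iOLs and 105 and 94.3 CPM in Eed cKO iOLs.

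Of 10 further SPARC and follistatin-like genes, 2 rose in OPCs and 3 in iOLs, beside 2.94% and 7.08% of all genes, with median log2 fold changes of 0.16 and 0.72. Fstl4 rose at both stages (log2 2.06 ± 0.24 and 0.85 ± 0.21, edgeR adjusted p = 0.00201 and 0.0344). Spock1, which encodes a testican proteoglycan, rose in OPCs (0.77 ± 0.15, edgeR adjusted p = 0.0288), and Spock2 joined Smoc1 and Fstl4 in iOLs (0.47 ± 0.12, 0.0395). Of 10 further olfactomedin-domain genes, 1 rose in OPCs, and 2 rose and 1 fell in iOLs, beside 3.25% and 10.6% of all genes in either direction. Their median log2 fold changes were 0.10 and −0.06. Adgrl2, which encodes a latrophilin receptor, rose by 1.38 ± 0.21 in OPCs and by 1.4 ± 0.23 in iOLs (edgeR adjusted p = 0.0084 and 0.00621). Olfm3 rose in iOLs from 0.398 and 0.666 CPM to 4.26 and 5.50 CPM (log2 3.18 ± 0.38, edgeR adjusted p = 0.00151), and Olfm2 fell by 0.52 ± 0.14 (0.047). The nearest paralogues of Olfml3, Olfml1, Olfml2a and Olfml2b, did not pass in OPCs or iOLs, and their log2 fold changes lay between −0.56 and 0.86.

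FGF genes were included because NDNF acts on FGF signalling. Of 11 in the table, 1 rose in OPCs and 2 in iOLs, beside 2.94% and 7.08% of all genes, with median log2 fold changes of 0.33 and 0.76. Fgfr4, a receptor gene, rose by 1.97 ± 0.33 in OPCs and by 1.20 ± 0.29 in iOLs (edgeR adjusted p = 0.0149 and 0.0303). Fgf2, the ligand that keeps OPCs dividing in culture, rose in iOLs by 1.67 ± 0.33 (edgeR adjusted p = 0.0136), from 16.1 and 19.0 CPM to 34.6 and 77.1 CPM. Fgfr1, the main FGF receptor gene of the lineage, was at 0.08 ± 0.22 in OPCs and 0.76 ± 0.25 in iOLs (edgeR adjusted p = 0.843 and 0.0858), and passed in iOLs in 5 alternatives, DESeq2 among them.

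**Figure D3:**
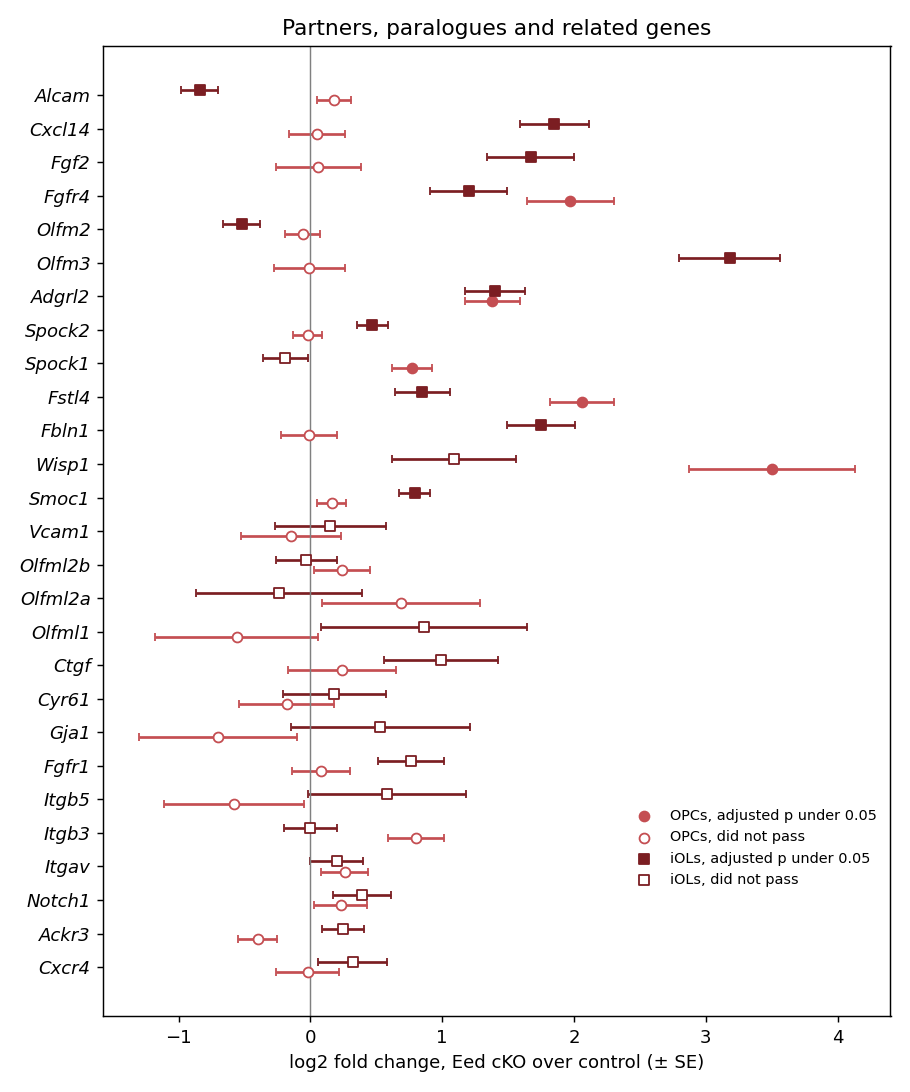
Log2 fold changes (Eed cKO over control) with standard errors for partners, paralogues and related genes of the 6, in OPCs (circles) and iOLs (squares), with filled symbols for an edgeR adjusted p under 0.05. Wisp1 at 3.50 in OPCs and Olfm3 at 3.18 in iOLs lie furthest right, and Cxcr4 and Ackr3 stay between −0.40 and 0.32.

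Of the related genes called here, Fstl4 and Adgrl2 in OPCs and Fbln1, Olfm3 and Cxcl14 in iOLs kept their calls in 16 of 16 alternatives (adjusted p up to 0.0452). Wisp1 and Fgfr4 in OPCs lost theirs without control OPC library 1 and without Eed cKO OPC library 1 or 2 (adjusted p up to 0.0652 and 0.077). Spock1 in OPCs lost it without each library other than control OPC library 2 and Eed cKO OPC library 3 (up to 0.128). In iOLs, Adgrl2 lost its call without control iOL library 1 (0.0716, in a range of 2.56e-06 to 0.0716). Smoc1 did so without either control iOL library or Eed cKO iOL library 1 (up to 0.0622). Fgf2 did so without either control iOL library or Eed cKO iOL library 2 (up to 0.124), and Alcam without control iOL library 1 or either Eed cKO iOL library (up to 0.0707). Spock2, Olfm2, Fgfr4 and Fstl4 in iOLs each lost theirs without any 1 of the 4 iOL libraries. They also lost them without Eed cKO OPC library 1 and, Fstl4 aside, without Eed cKO OPC library 2 (adjusted p up to 0.312, 0.357, 0.216 and 0.266).

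Several of the 6 genes are also made by other cells of the brain, so lists of their markers were summed in CPM. In bulk RNA, fewer cells of a type and less RNA per cell cannot be told apart. Fibroblast and meningeal markers (11 of 14 in the table) summed to 97.7 to 109 CPM in control OPCs, 83.5 to 143 in Eed cKO OPCs, 129 to 291 in control iOLs and 629 to 939 in Eed cKO iOLs. Fn1, the fibronectin gene, alone made 555 to 833 of these in Eed cKO iOLs. Of the 11, 4 passed as higher in OPCs and 5 in iOLs, among them Foxc1, Tbx18, Igf2 and the collagen gene Col6a2 at both stages. Col6a2 was at 1.3 on the log2 scale in OPCs and 1.17 in iOLs (edgeR adjusted p = 0.0218 and 0.0212). The collagen genes Col1a1 (−1.38 on the log2 scale in iOLs), Col1a2 (−1.03), Col3a1 (−0.21) and Col6a1 (1.07) passed at neither stage. Nor did Dcn (2.93 in iOLs, edgeR adjusted p = 0.0542) and Pdgfrb (0.79). Lum, Dpt and Slc6a13 are not in the table. Without Fn1, left out after the values were seen, the other 10 summed to 36.8 to 110 CPM in control iOLs and 74.1 to 106 in Eed cKO iOLs, which overlap. The part of such cells in the values of the 6 genes was not tested.

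Endothelial markers, of cells that make Icam1 and Cxcl12, were in the table for 5 of 14 genes. They summed to 34.6 to 52.1 CPM in control OPCs and 39.9 to 55.5 in Eed cKO OPCs, and to 80.1 to 80.2 in control iOLs and 125 to 146 in Eed cKO iOLs. Kdr, a VEGF receptor gene, made 85.8 to 101 CPM of the last, and Pecam1, Cdh5, Cldn5, Tek and Tie1 are not in the table. Kdr and Flt1 passed as higher at both stages, while Slc2a1, Egfl7 and Eng passed at neither. In OPCs and iOLs Slc2a1 was at −0.2 and −0.11 on the log2 scale, and Egfl7 at 0.13 and −0.03. Eng, with edgeR adjusted p = 0.533 and 0.312, was at 0.398 to 0.888 CPM in control iOLs and 1.16 to 1.44 in Eed cKO iOLs. The part of endothelial cells in the values of Icam1 and Cxcl12 was not tested. Microglia markers, of cells that make Olfml3, were in the table for 3 of 15 genes, and Aif1, Cx3cr1, Csf1r and Tmem119 are not in it. They summed to 31.1 to 36.4 CPM in control OPCs and 26.3 to 31.0 in Eed cKO OPCs, and to 19.4 to 20.8 in control iOLs and 20.1 to 23.5 in Eed cKO iOLs. The microglia sum was thus no higher in Eed cKO iOLs than in any OPC library, while Olfml3 was.

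Markers of Cajal-Retzius and layer 1 neurons, the cells that Ndnf marks in part, were in the table for 8 of 8 genes. They summed to 68.8 to 205 CPM in control OPCs, 160 to 184 in Eed cKO OPCs, 45.0 to 49.8 in control iOLs and 131 to 146 in Eed cKO iOLs. Reln, their defining gene, was at 95.3 to 114 CPM in Eed cKO iOLs and passed at neither stage. Ebf3 and Trp73 passed as higher at both stages, and Npy in iOLs, and the part of such cells in the values of Ndnf was not tested. Pericyte and smooth muscle markers (8 of 11) summed to 368 to 496 CPM in control iOLs and 289 to 468 in Eed cKO iOLs, and to 85.2 to 296 and 87.2 to 215 in the OPC groups. Acta2 made 197 to 262 CPM of the sum in control iOLs and 153 to 235 in Eed cKO iOLs. Of the 8, only Rgs5 passed, as higher in iOLs (log2 2.22, edgeR adjusted p = 0.00279). It was at 0.944 to 1.36 CPM in control iOLs and 5.23 to 5.59 in Eed cKO iOLs. Astrocyte markers summed to 7950 to 8080 CPM in control iOLs and 10900 to 12600 in Eed cKO iOLs, with overlapping OPC groups. Gfap made 3660 to 3780 CPM of the sum in control iOLs and 6120 to 7940 in Eed cKO iOLs. Its difference in iOLs did not pass (edgeR adjusted p = 0.338). Of the 12 astrocyte markers, only Sox9 passed as higher in iOLs (log2 0.54) and only S100b as lower (−1.58). In OPCs only Agt passed, as lower (−1.88).

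Neuron markers (16 of 16) summed to 1310 to 1420 CPM in control OPCs and 1490 to 2150 in Eed cKO OPCs. In iOLs they summed to 1650 to 1710 CPM in controls and 1530 to 1560 in Eed cKO cells. Map2 made 785 to 813 CPM of the sum in control iOLs and 686 to 725 in Eed cKO iOLs. None of the 16 passed as lower at either stage. In OPCs 2 passed as higher, Gad2 (log2 2.55, edgeR adjusted p = 0.000154) and Slc32a1 (2.41, 0.00332). In iOLs 3 did, Gad2 (edgeR adjusted p = 0.012), Tubb3 (0.0442) and Nefl (0.0116). Schwann and neural crest markers (9 of 10), which include Erbb3, summed to 320 to 497 CPM over the OPC libraries and to 343 to 422 over the iOL libraries. Of 6 red blood cell markers Hbb-b1 is in the table, at 562 to 2880 CPM in control OPCs, 780 to 1040 in Eed cKO OPCs and at most 1.17 CPM in iOLs.

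The lineage's own markers moved too. OPC markers summed to 12400 to 13300 CPM in control iOLs and 6920 to 7130 in Eed cKO iOLs, and oligodendrocyte markers to 5940 to 5990 and 1540 to 2240. Gpr17 (3510 to 3820 CPM in control iOLs, 869 to 1200 in Eed cKO iOLs) and Bcas1 (3270 to 3430, 643 to 921), which mark cells that have begun to differentiate, made up most of the fall in the OPC sum. Of the 11 OPC markers, 1 passed as higher in iOLs and 4 as lower. Cspg4 rose (log2 0.73, edgeR adjusted p = 0.0452). Olig2 (log2 −0.67, edgeR adjusted p = 0.0252) and Neu4 (−1.95, 0.00414) fell, as did Gpr17 and Bcas1. Pdgfra was at 0.41 (edgeR adjusted p = 0.298), at 497 to 597 CPM in control iOLs and 635 to 821 in Eed cKO iOLs. Sox10 was at −0.49 (edgeR adjusted p = 0.108). In OPCs the sums were 16200 to 20300 and 17500 to 17800 for OPC markers, and 2250 to 6630 and 1110 to 2910 for oligodendrocyte markers, in controls and Eed cKO cells. The oligodendrocyte sum of control iOLs thus lay within the range of control OPCs, while the OPC sum was lower. The 6 genes were thus higher in Eed cKO iOLs, where oligodendrocyte markers were lower than in control iOLs, and the part of cell make-up in this was not tested.

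**Figure D4:**
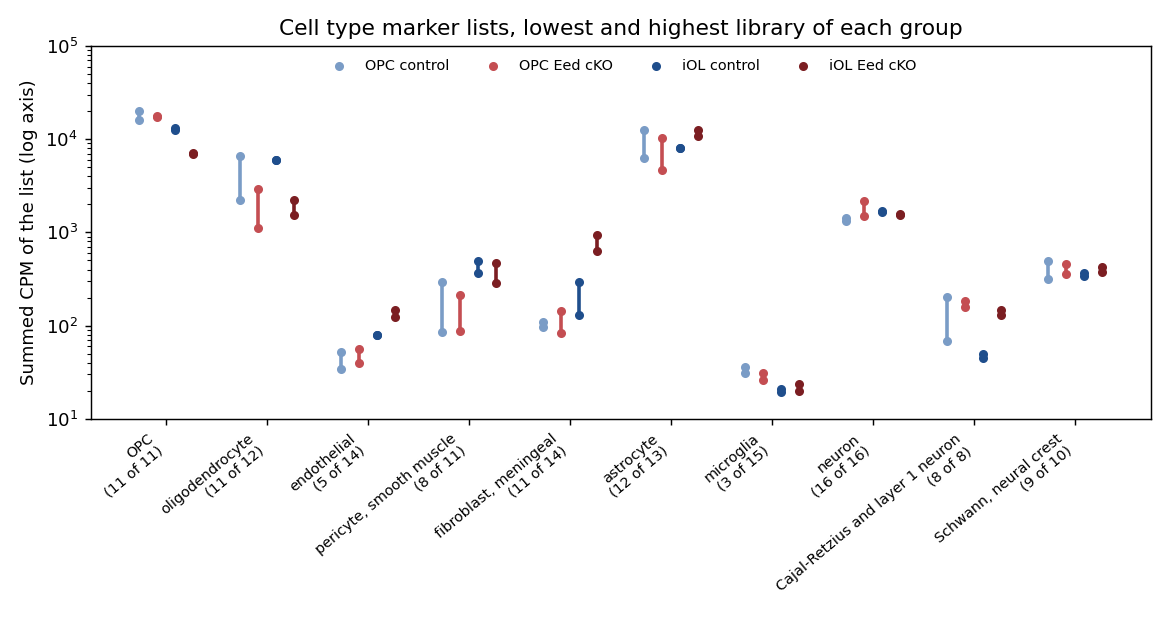
Summed level of each list of cell type markers in CPM on a log axis, with the lowest and the highest library of each group as points joined by a line, and under each name how many of its genes the table holds. Fibroblast and meningeal markers reach 629 to 939 CPM in Eed cKO iOLs, of which Fn1 makes 555 to 833, and microglia markers stay between 19.4 and 36.4 CPM in all groups.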

How the data were processed

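The deposited table holds raw counts per gene for 9 RNA libraries. Per the submitters' processing notes the authors used cutadapt 1.14, STAR 2.6.0, featureCounts of Subread 1.6.2 and the mm10 genome, with no order stated. Each of its 13549 genes has at least 1 count in every library and 10 in at least 4, and genes under that limit were not analysed here. Its extra line of labels was dropped. Per the labels' protocols a stranded polyA kit or an amplifying kit was used depending on the amount of RNA, without saying for which library. Chromatin immunoprecipitation samples were not analysed here.

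In R 4.3.3, edgeR 4.0.16 (quasi-likelihood test, with limma 3.58.1) fitted 4 group means to all 9 libraries with TMM factors. Its expression filter (minimum count 10) kept every gene, so the alternative setting with no filter repeats the main fit. A gene was called when its p, adjusted by Benjamini and Hochberg over the whole table, was under 0.05. The biological coefficient of variation was 16.3%, on 5 residual degrees of freedom. Each SE is the log2 estimate, without sign, divided by the root of F. Exact binomial intervals (95%) cover counting error only. Totals of 17417529 to 19680398 counts set the precision. Positions and promoters are from RefSeq tables of GRCm38.p6, which 99.8% of symbols matched. The 6 genes, the lists and the tests were chosen with earlier results of these data known. By rule the text names the 6 genes, Eed with its PRC2 partners, the 3 genes most like each, up to 4 called genes per list and comparison, and a set of partners and paralogues. Some genes under this rule and some neighbouring genes are not reported here.

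Other settings were RLE factors, no filter, a filter of 1 CPM in 4 libraries, fits of the compared groups alone, a replicate block, a term for postnatal day, DESeq2 1.42.0, removal of each library, within-day values, a prior count of 0.5 and no TMM factor. In 5 simulations of 13549 genes with 200 changed, 70.6% of 2-fold changes were found in the OPC comparison, 55.8% in that of iOLs and 58% in control differentiation. False calls were 5.72%, 5.89% and 5.43%.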

Additional observations from a re-analysis of the deposited data

Results flagged for a closer look

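For 4 related genes the Eed cKO difference in iOLs was unlike that in OPCs by a test of the difference itself (edgeR, adjusted over all genes). In this test 1.83% of all genes were called. The difference of the log2 fold changes, iOLs minus OPCs, was 3.19 for Olfm3 (adjusted p = 0.0175), 1.80 for Cxcl14 (0.0359) and 1.75 for Fbln1 (0.0385), and −1.03 for Alcam (0.0359). Olfm3, Cxcl14 and Fbln1 were at −0.01, 0.05 and −0.01 in OPCs, and Alcam was at 0.18. Each of these calls ended without 5 or 6 of the 9 libraries, namely Eed cKO OPC library 1, Eed cKO OPC library 2 (Olfm3 aside), control iOL library 1, control iOL library 2 (Cxcl14 aside) and both Eed cKO iOL libraries. The adjusted p over the alternatives ran up to 0.109 for Olfm3, 0.131 for Cxcl14 and 0.181 for Fbln1 and Alcam.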

How the results depend on the processing

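The counts of calls moved with the libraries more than with the scaling or the filter. Eed cKO against control called 440 genes in OPCs, but 190 with the OPC groups only, 1382 with postnatal day as a term, 1006 with DESeq2 and 164 to 3935 without single libraries. In iOLs it called 1434 genes, but 3699 with the iOL groups only, 2680 with postnatal day and 349 to 2236 without single libraries. The difference between stages called 248 genes, but 1202 with postnatal day, 823 with DESeq2 and 2 to 2156 without single libraries. Differentiation called 6270 genes in controls (4057 to 7236 without single libraries) and 5461 in Eed cKO cells (3080 to 6883). Higher against lower calls in OPCs were 399 and 41, and 848 and 534 with postnatal day and 767 and 239 with DESeq2. Without control OPC library 2 lower calls outnumbered higher ones, 2073 to 1862. RLE factors and a filter of 1 CPM in 4 libraries kept each count within 1.5 times, and no filter repeated the main fit. The cause was not tested.

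Whether the replicate numbers pair the samples was not settled. Number 2 is of day 6 in control OPCs and of day 7 in Eed cKO OPCs, while number 1 is of day 7 in both. In groups of 2 libraries the deviations from the group mean mirror each other, so both numbers give the same value in iOLs. Deviations of same-numbered libraries correlated at 0.313 and −0.352 between control and Eed cKO OPCs and at 0.239 between the iOL groups of 2, and between −0.0843 and 0.0426 elsewhere. With the replicate number as a block, 1941 genes (1223 higher, 718 lower) were called in OPCs and 1049 for the difference between stages. The block turned the sign in OPCs of Fgfr1 (−0.06), Ctgf (−0.01), Spock2 (0.01), Olfm3 (0.19) and Cxcl14 (−0.02).

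For 25 results the log2 fold change changed sign somewhere. Of these, 2 are described without a test, Ndnf and Olfml3 in OPCs. Ndnf, at 0.03, was at −0.28 with the replicate block, −0.35 without control OPC library 1 and −0.31 without Eed cKO OPC library 3. Olfml3, at −0.02, was at 0.07 without control OPC library 1 and 0.11 within day 6. The other 23 had no adjusted p under 0.117 where they turned. With RLE factors and with DESeq2 alike, the OPC values of Fbln1 (0.01), Spock2 (0.00) and Olfm3 (0.01) turned. Postnatal day turned Cxcr4 (0.11), Vcam1 (0.04) and Fbln1 (0.06) in OPCs, and the fit of the groups compared turned Olfm3 (0.00) in OPCs and Itgb3 (0.01) in iOLs, as the 1 CPM filter did Itgb3 (0.00). Leaving out single libraries turned the rest. In OPCs the values ran from −0.35 to 0.42 for Cxcr4, −0.09 to 0.64 for Notch1, −1.41 to 0.21 for Itgb5, −0.25 to 0.50 for Fgfr1, −1.54 to 0.48 for Gja1 and −0.58 to 0.38 for Cyr61. They ran from −0.31 to 1.16 for Ctgf, −1.32 to 0.67 for Olfml1, −0.58 to 0.46 for Vcam1, −0.20 to 0.19 for Fbln1, −0.05 to 0.01 for Spock2 and −0.17 to 0.18 for Olfm3. For Olfm2 they were −0.13 to 0.01, for Fgf2 −0.11 to 0.26 and for Cxcl14 −0.03 to 0.13. In iOLs they ran from −0.00 to 0.38 for Itgav, −0.33 to 0.26 for Itgb3, −0.13 to 0.57 for Cyr61, −1.01 to 1.54 for Olfml2a, −0.19 to 0.15 for Olfml2b and −0.36 to 0.52 for Vcam1. In control differentiation they ran from −2.56 to 0.25 for Nov and −0.83 to 0.09 for Ndnf.

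In iOLs the log2 fold changes of the 6 genes kept their direction in all 16 alternatives, from 5.51 to 6.68 for Nov, 3.84 to 4.25 for Ndnf, 3.34 to 5.14 for Smoc2, 2.85 to 3.51 for Cxcl12, 2.55 to 2.70 for Olfml3 and 2.08 to 2.95 for Icam1. The 6 were chosen as higher without Eed and their iOL groups did not overlap, so leaving out a library could not turn the sign. Only the sizes are informative here. Nov could not be fitted with the control groups only, where the filter removed it. Of the 18 genes picked for likeness 16 stayed with a prior count of 0.5, and 5 of 6 genes kept their order of groups without TMM factors, Olfml3 being the exception in its overlapping OPC groups. Groups of 2 leave a single library when 1 is left out, which is then assumed to vary like the other groups. Control counts of Nov and Smoc2 were under 30 reads in each library, which limits their ratios.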

Other observations

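Olfm3, Cxcl14 and Fbln1, which encode an olfactomedin, a chemokine and a matrix protein, fell steeply when control cells differentiated. Their log2 fold changes of iOLs over OPCs in controls were −3.82 ± 0.38 for Olfm3, −3.94 ± 0.27 for Cxcl14 and −3.32 ± 0.27 for Fbln1 (edgeR adjusted p = 6.45e-05, 8.61e-06 and 1.99e-05). In Eed cKO iOLs they were above control iOLs. Cxcl14, at 23.2 and 25.8 CPM against 98.6 to 118 in OPCs, and Fbln1, at 13.2 and 10.5 CPM against 29.6 to 44.0, were still below every OPC library. Olfm3, at 4.26 and 5.50 CPM, met the lower end of the OPC libraries at 5.47 to 9.21. Olfml3 also fell in control cells, but in Eed cKO iOLs it was above every OPC library.

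Fgf2, Fgfr4 and Fstl4 rose in control differentiation, by 1.24 ± 0.35, 2.14 ± 0.35 and 4.44 ± 0.26 on the log2 scale (edgeR adjusted p = 0.0165, 0.0011 and 4.99e-06), and were higher still in Eed cKO iOLs. In control differentiation Vcam1 fell by 2.67 ± 0.44 on the log2 scale (edgeR adjusted p = 0.00113), and ran from 165 to 340 CPM over the OPC libraries.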
